A study of Mus musculus with 15 samples.

Results

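The cells described here were macrophages of the mouse aorta that carried RNA of Mrc1, Cd163, Folr2, F13a1 and Cd209f, and they numbered 1864 of 128019 cells (1.46%) in 15 single-cell RNA libraries. They were chosen by their own counts. A barcode had to hold 200 to 7000 genes and at most 25% mitochondrial UMIs (unique molecular identifiers, 1 per captured RNA molecule). It then had to pass a myeloid gate, which asked for a UMI of at least 2 of Csf1r, Lyz2, Fcer1g and Tyrobp, none of Cd3e, Ms4a1 and Cdh5, and no more than 1 UMI of Lum and Pdgfra together. Of the 11223 cells in that gate, those with at least 3 of the 5 genes named above (set A), and with more genes of set A than of set B (Retnla, Cd209a, Ear2, Fcrls and Clec4b1), were kept, which was 16.6% of the gate. Cells of the same gate with at least 3 genes of set B and more of B than of A, 1156 in all, are called Retnla-type cells and served as the nearest comparison.

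The study set whole aortas of young and old C57BL/6N wild-type mice against each other, after fisetin, a plant flavonol given as a senolytic, or after its vehicle of ethanol, PEG400 and Phosal. The labels give the young mice as 3 months and the old as 27 months of age. The methods give a higher age for the young, so the age that young stands for in each contrast is uncertain. Both agents were given by gavage for 1 week, then after 2 weeks without treatment for 1 more week. The 4 groups were young vehicle (Y VEH, 2 female and 2 male libraries), young fisetin (Y FIS, 2 and 2), old vehicle (O VEH, 2 and 1) and old fisetin (O FIS, 2 and 2). No group carried a transgene or a deletion. Each library pooled cells of 3 mice by its label, while the methods give 2 to 3 mice per sex and treatment in one place and 3 in another. The library is therefore the replicate (F1, F2, M1 and M2 name the sex and number), and the spread between libraries is that between pools. Perivascular fat was removed before the aorta was digested, and viable cells were sorted before capture.

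Tissue-resident macrophages of this kind lie along vessels and in the adventitia, where they take up debris, dead cells and free haemoglobin and hold surface receptors such as the mannose receptor (Mrc1), the haemoglobin scavenger receptor (Cd163) and the folate receptor beta (Folr2). They are kept alive by signals through Csf1r, and many of them carry Lyve1, a hyaluronan receptor, or Timd4, a receptor for phosphatidylserine on dying cells. A second type of macrophage, derived from or fed by monocytes, tends to hold more MHC class II and Ccr2.

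The RNAs on which the results turn are shown first with the stretch of genome before their start. Each run is the 250 bases upstream of the RefSeq start in build GRCm38.p6, read along the gene's own strand, and the capitals mark letters of 3 motifs searched on both strands. The motifs were GAGGAA or its reverse TTCCTC (core of the myeloid factor PU.1), CACGTG (the E-box, its own reverse) and GAAANNGAA or its reverse TTCNNTTTC (core of the interferon-stimulated response element). Trem2 and Ccl8 are shown because they carried the age difference and the age-by-sex difference, Ctsd because it differed by age and by sex, and Bst2 and Irgm1 because among interferon-induced genes with the response element they had the smallest p in old against young vehicle libraries. Trem2 (chr17:48346151-48346400, plus strand) and Ccl8 (chr11:82114935-82115184, plus strand) each held 1 TTCCTC. Ctsd (chr7:142387828-142388077, minus strand) held 2 E-boxes. Bst2 (chr8:71537473-71537722, minus strand) and Irgm1 (chr11:48871421-48871670, minus strand) each held 2 overlapping cores of the response element.
Trem2: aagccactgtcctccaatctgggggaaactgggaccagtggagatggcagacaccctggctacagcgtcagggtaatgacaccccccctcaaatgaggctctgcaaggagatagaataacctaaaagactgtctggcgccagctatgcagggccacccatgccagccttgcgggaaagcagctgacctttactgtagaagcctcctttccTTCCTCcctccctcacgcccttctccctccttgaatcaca
Ccl8: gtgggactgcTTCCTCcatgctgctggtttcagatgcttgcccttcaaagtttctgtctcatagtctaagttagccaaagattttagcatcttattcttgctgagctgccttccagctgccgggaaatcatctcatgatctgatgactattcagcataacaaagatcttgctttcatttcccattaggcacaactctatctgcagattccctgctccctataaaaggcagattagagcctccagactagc
Ctsd: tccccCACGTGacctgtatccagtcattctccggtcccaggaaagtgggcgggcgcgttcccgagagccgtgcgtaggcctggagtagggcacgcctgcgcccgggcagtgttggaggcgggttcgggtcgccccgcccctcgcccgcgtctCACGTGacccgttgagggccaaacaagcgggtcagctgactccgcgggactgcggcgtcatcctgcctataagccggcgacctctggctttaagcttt
Bst2: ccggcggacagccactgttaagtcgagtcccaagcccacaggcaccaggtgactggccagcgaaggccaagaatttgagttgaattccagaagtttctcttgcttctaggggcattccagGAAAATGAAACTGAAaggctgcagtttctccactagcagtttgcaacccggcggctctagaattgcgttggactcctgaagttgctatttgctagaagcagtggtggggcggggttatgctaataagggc
Irgm1: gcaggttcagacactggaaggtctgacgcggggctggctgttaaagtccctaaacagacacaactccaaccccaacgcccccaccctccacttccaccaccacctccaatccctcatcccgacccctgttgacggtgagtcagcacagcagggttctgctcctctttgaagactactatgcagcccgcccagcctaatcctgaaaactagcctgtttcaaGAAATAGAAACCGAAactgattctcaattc

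The response element core stood in 7.13% of all 32851 promoters of this length and in 26 of the 51 promoters (51%) that could be matched to the list of interferon-induced genes. The PU.1 core was found in 23.3% of all promoters and in 14 of 23 promoters (60.9%) of the list of resident macrophage genes used below. The E-box was in 6.02% of all promoters and in 3 of 31 promoters (9.68%) of the lipid-associated list, with Ctsd among them. Of the other pairs of list and motif, the response element core was in 12.9% of the lipid-associated and 13% of the resident promoters. The PU.1 core was in 29.4% of the interferon-induced and 32.3% of the lipid-associated promoters. The E-box was in 0 of the interferon-induced and 0 of the resident promoters. A match is a run of letters and no evidence of binding.

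The libraries held 49964001 to 74587567 UMIs (median 62732950) in 6372 to 14805 filtered cells. The 2 male Y FIS libraries stood apart. In them 68 of 14805 and 26 of 8726 cells passed the myeloid gate, and they gave 8 and 1 of the cells described here. Tests across RNAs were therefore made on the other 13 libraries, each with 59 to 248 of these cells and 588950 to 2123545 of their UMIs. Between 8 and 51 barcodes were shared by each pair of libraries, 0 of them among these cells. Doublet calling marked 8 of the 1864 cells (0.429%) and 1.85% of all filtered cells. By library the calls were uneven, with 2 of 6372 cells in O VEH F1, 4 of 7084 in Y FIS F2 and 739 of 14805 in Y FIS M1. Few calls therefore say little about how many doublets remained.

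The macrophage label held by markers that the rule did not use. In the 1855 cells of the 13 libraries, UMIs of C1qa were found in 97.2%, Adgre1 (F4/80) in 87.4%, Mertk in 71.9% and Cd68 in 70.8% of cells. The same RNAs had a UMI in 11.8%, 7.28%, 2.88% and 12.2% of B cells (median 6826.5 UMIs, against 8182 in these cells), and in 10.7%, 1.16%, 33.7% and 1.46% of endothelial cells. Mertk was thus common in endothelial cells too. All such reference cells were drawn from cells with fewer than 2 of the 4 gate genes. Cells with more stray myeloid RNA were thus left out, and the reference values here and below may understate that background. The genes that chose the cells were common in them by construction. The gate gene Csf1r was found in 94.3%, and of set A Mrc1 was detected in 98.3%, F13a1 in 97.3%, Cd163 in 83.7%, Folr2 in 74.4% and Cd209f in 43.8% of the cells. Markers of T and NK cells and of fibroblasts stood low, while those of neutrophils, red blood cells, monocytes and B cells reached higher in some libraries. The red blood cell, monocyte and B cell values are given below. T and NK cell markers together made up 0.000716 to 0.00594% of the UMIs per library, and fibroblast markers 0.0193 to 0.116%. The gate left out cells with a Cd3e UMI or more than 1 UMI of Lum and Pdgfra. Low sums of these lists were thus partly built in. Neutrophil markers made up 0.0100 to 0.169%, highest in Y VEH F1 and next in O FIS M2 (0.139%). Their median was 0.0347%, against 0.00544% in Retnla-type cells.

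Residence in the tissue was not itself measured, and its markers were found in part of the cells. Lyve1 had a UMI in 56.6% of the cells and Timd4 in 34.1%, against 2.60% and 3.56% of Retnla-type cells, and 1.11% and 0.363% of B cells, which should lack both. Their median cell held 8182 UMIs, against 16062.5 in Retnla-type cells, so these cells showed more of such genes at less depth.

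Red blood cell RNA was the other large component of these sums. Haemoglobin made up 2.35 to 27.2% of the UMIs of the cells by library, against 0.490 to 14.9% in Retnla-type cells and at most 1.87% in B cells, 1.10% in endothelial cells and 0.452% in fibroblasts of the same libraries. It was carried by part of the cells, since those with over 1% haemoglobin UMIs were 5.99 to 31.3% of these cells per library. The erythroid list as a whole took 2.35 to 11.03% of UMIs in Y VEH libraries, 5.50 to 27.3% in O VEH, 7.24 to 26.6% in O FIS and 8.56 to 13.4% in Y FIS. Its part in the results below was not tested beyond fits without the cells of over 1% haemoglobin, which for old against young libraries gave 21 calls, 19 of them shared. Levels below are given as CPM, the counts of an RNA relative to a fixed total per library. For these cells and for Retnla-type cells they are scaled by the trimmed mean of M values (TMM), which leaves out RNAs of extreme ratio. Each class was scaled on its own for these levels, so TMM does not act between them. CPM of B cells, endothelial cells and fibroblasts, and of the cells split by Lyve1 below, have no such scaling.

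The rule cut through a continuous range of set A genes. Of the cells kept, 607 had 3 of the 5 genes, 699 had 4 and 558 had all 5, and just outside lay 1448 gated cells with 2 genes and, of 979 gated cells with 3, those that had as many or more of set B. Mrc1 stood at 2061 ± 342 CPM (SD, 13 libraries) in the cells kept and at 691 ± 85.5 CPM in Retnla-type cells. F13a1 was at 2772 ± 662 against 798, Cd163 at 758 ± 249 against 54.5, Folr2 at 689 ± 133 against 6.63 and Cd209f at 480.4 ± 169 against 1.16 CPM. These values chose the cells and are given with no test. Of set B, Retnla was at 3587 ± 1906 CPM in the cells kept and 13431 CPM in Retnla-type cells. It had a UMI in 49.5% of the cells kept, and also in 20.4% of B cells, 19.7% of endothelial cells and 21.5% of fibroblasts, which should lack it. Fcrls, with a UMI in 68.9%, was the set B gene that most of these cells shared, and Ear2, in 2.26%, the one they most lacked.

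**Figure D1:**
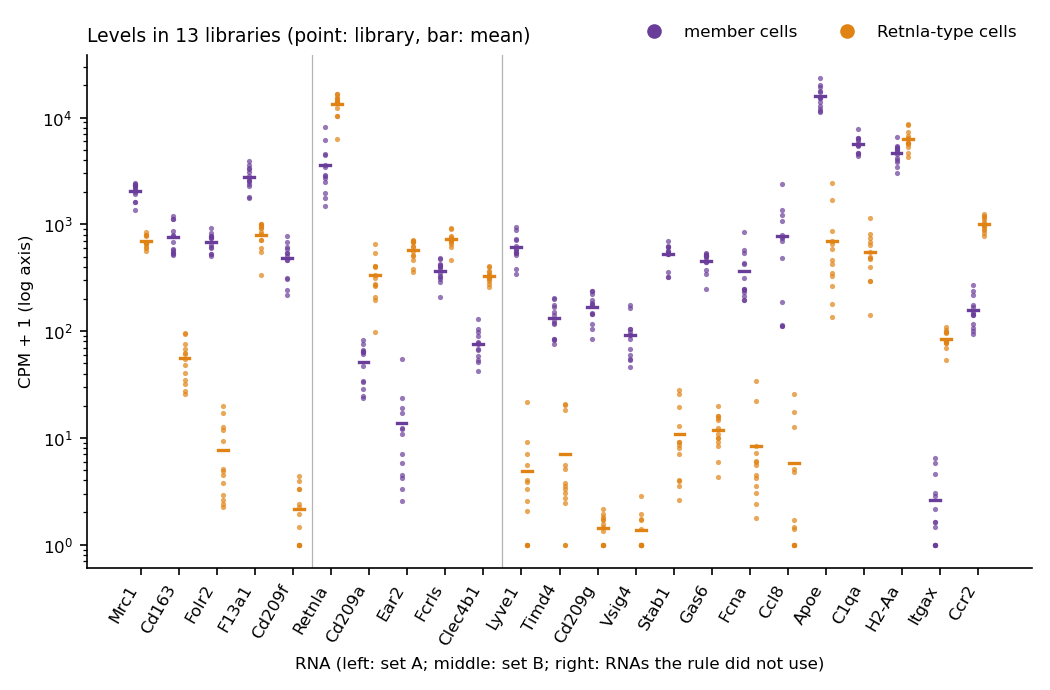
Levels of 23 RNAs in 13 libraries on a log axis (CPM + 1), purple for the cells described here and orange for Retnla-type cells, 1 point per library and a bar at the mean. Set A and set B chose the cells; to the right stand RNAs that the rule did not use, of which Lyve1, Cd209g, Vsig4 and Ccl8 were far higher in the purple cells and Itgax and Ccr2 higher in the orange cells.

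Apart from mitochondrial and ribosomal protein RNAs, the most abundant RNAs of these cells by UMI count were those of haemoglobin (Hbb-bs at 66848 ± 53578 CPM), Malat1, and then Apoe, Lyz2, Cd74, Tmsb4x and C1qa. Apoe, the lipid carrier, averaged 15806 ± 3666 CPM against 699 ± 661 CPM in Retnla-type cells. C1qa, which with C1qb and C1qc forms the recognition part of the classical complement pathway, averaged 5648 ± 986 CPM against 549.7 ± 260 CPM. Cd74, the MHC class II chaperone, was the lower of the pair here, at 10170 ± 1878 CPM against 16105 CPM.

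Set against Retnla-type cells, the RNAs most in excess beside the rule's own were ranked by the log2 ratio of mean CPM + 1. They were Ccl8 (7.05), Lyve1 (6.97), Cd209g (6.86), Vsig4 (6.08), Saa3 (5.86), Stab1 (5.58), Fcna (5.44), Colec12 (5.28), Gas6 (5.28) and Ppp1r9a (5.18). Lyve1 averaged 609 ± 173 CPM against 3.86 CPM, and the lectin gene Cd209g 166 ± 49.2 against 0.443 CPM. Vsig4, a receptor that binds complement C3 fragments, averaged 91.1 ± 39.6 CPM against 0.358 CPM, and Gas6, the bridge between dying cells and the receptors Mertk and Axl, 454 ± 86.2 against 10.7 CPM. Colec12 and Gas6 were also common in fibroblasts, with a UMI in 73.5% and 66.7% of them. With nothing added to the means the log2 ratio was 8.55 for Cd209g, 7.99 for Vsig4, 7.32 for Ccl8 and 7.30 for Lyve1, another order, and 8 of the 10 RNAs were also among the 10 highest. Ccl8 varied widely between libraries, at 770 ± 640 CPM with O FIS F2 and 637 CPM without it, so its place in the order is uncertain. Saa3 was carried by few libraries, at 579 ± 1044 CPM with O FIS F2 and 321 CPM without it, and it had a UMI in 10.997% of these cells and 9.37% of Retnla-type cells. The RNAs most lacking, by the ratio of mean CPM + 1, were Upb1 (−6.48), Ccl17 (−5.80), Hr (−5.57), H2-DMb2 (−5.29) and Itgax (−5.03). Itgax, the integrin CD11c of dendritic cells and some macrophages, averaged 1.601 ± 1.91 CPM against 83.9 CPM. Without the added 1 Ccl17 was the lowest (−9.64) and Upb1 next (−8.24). Since both classes were cut by their counts, these ratios are a description with no test.

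As whole lists, the genes of the resident programme (30 genes such as Lyve1, Timd4, Gas6, Pf4, Selenop and Maf) took 1.35 to 1.82% of the UMIs of these cells, against a median of 0.324% in Retnla-type cells. Complement genes took 1.38 to 1.97% against 0.305%, efferocytosis genes 1.48 to 2.00% against 0.443% and scavenger receptors 0.51 to 0.859% against 0.221%, each higher in 13 of 13 libraries. Both classes were cut by their counts, so these totals, too, are a description with no test. These lists share genes, so their totals are not separate results. C1qa (5648 CPM), C1qb and C1qc are in both the complement and the efferocytosis list. Lyve1, Stab1, Siglec1, Vsig4, Fcna and Fcgrt are in both the resident and the scavenger list. MHC class II genes ran the other way, at 1.83 to 3.35% against 3.57%, and were lower in 13 of 13 libraries. Monocyte markers took 0.046 to 0.305% in 12 of the libraries and 0.562% in Y VEH F1, against 0.622%. Ccr2, the receptor that draws monocytes from the blood, averaged 158 ± 54.3 CPM against 1010 ± 143 CPM.

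The cells were not uniform. Those with a UMI of Lyve1 were 1053 of the 1864 (56.5%), and per library they made up from 38.6% (O FIS M2) to 73.7% (Y VEH M1), with a median of 55.8%. Set A genes that chose the cells were also higher in them, such as Folr2 (mean 967 against 212 CPM) and Cd209f (715 against 125 CPM), and they held a mean of 4.31 set A genes against 3.54. Of RNAs that the rule did not use, within each library they held more Timd4 (178 against 49.4 CPM), Cd209g (249.8 against 40.2 CPM), Gas6 (598 against 217 CPM), Vsig4 (131 against 21.8 CPM), C4b (549 against 178 CPM) and Ccl24 (476 against 124 CPM) than the cells without one, in 13 of 13 libraries for each. They held less H2-Aa (3708 against 6355 CPM), Cd74 (8250.2 against 13508 CPM), Ciita (72.5 against 135 CPM), Ccr2 (91.5 against 257 CPM) and Cx3cr1 (53.2 against 202 CPM), again in all 13 libraries. The macrophage gene Adgre1 was much alike in both, at 589.9 and 574 CPM, and higher with Lyve1 in 8 of 13 libraries. The Lyve1 cells were the deeper, with a median of 8998 UMIs against 7039, and a class cut by 1 UMI is a range and not a type.

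Taken by group, Lyve1 had a UMI in 62.2 ± 13.1% of the Y VEH cells (SD, 4 libraries), 58.7 ± 6.04% of the O VEH cells (3), 52.0 ± 9.61% of the O FIS cells (4) and 53.9 ± 0.340% of the Y FIS cells (2). In the same order of groups, Timd4 did so in 39.7 ± 7.95%, 30.3 ± 6.68%, 29.99 ± 1.67% and 35.6 ± 0.0937% of cells, and H2-Aa in 84.8 ± 1.27%, 83.7 ± 6.78%, 81.9 ± 0.959% and 85.2 ± 4.32%. The ranges of the groups overlapped for Lyve1. Timd4 ran from 28.2 to 32.2% in O FIS, under the 35.5 to 35.6% of Y FIS, and H2-Aa from 80.7 to 83.1% in O FIS, just under the 83.2 to 86.2% of Y VEH, while the other ranges overlapped. These shares of cells were not tested. The RNA levels of Lyve1 and Timd4 did not pass the test between old and young libraries, with log2 fold changes of −0.30 ± 0.23 (SE, edgeR adjusted p = 0.628) and −0.45 ± 0.25 (adjusted p = 0.532).

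The first comparison asked whether these macrophages became more or fewer with age or with fisetin. Under vehicle they made up 1.62 ± 0.602% of filtered cells in the young (SD, n = 4) and 1.81 ± 0.500% in the old aortas (n = 3). Under fisetin they were 1.43 ± 1.73% of the young (n = 4) and 1.40 ± 0.611% of the old (n = 4). The young fisetin libraries were 3.60 and 2.06% in females and 0.0540 and 0.0115% in the males that stood apart, and without those males Y FIS minus Y VEH turned from −0.186 to 1.21 percentage points. The groups overlapped, and O VEH against Y VEH gave an exact two-sided permutation p of 0.686 (adjusted p = 0.914). O FIS against O VEH gave an exact permutation p of 0.4 (adjusted p = 0.873), and Y FIS against Y VEH of 0.914. The smallest p that 3 against 4 libraries allow is 0.0571, so these contrasts of O VEH could not have passed. Old against young over both treatments (7 against 8 libraries, smallest possible p 0.000311) gave an exact permutation p of 0.913.

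Within the myeloid gate their share was 18.7 ± 6.42% for Y VEH, 16.6 ± 1.68% for O VEH, 15.4 ± 9.12% for O FIS and 15.99 ± 11.3% for Y FIS. In that order Retnla-type cells were 13.8 ± 7.67%, 8.03 ± 0.240%, 6.47 ± 1.64% and 10.3 ± 10.4% of the gate. Of both classes together, the cells described here were 58.3 ± 12.1%, 67.3 ± 1.73%, 67.8 ± 7.23% and 71.6 ± 20.3%, and 61.1 ± 6.92% in female and 71.9 ± 15.6% in male libraries (exact permutation p = 0.0904, adjusted p = 0.784). The mean of Y FIS rests on its males, with 8 of 11 and 1 of 1 cells, since its females were at 56.8 and 57.0%. Without both males the difference from Y VEH was −1.41 points, and the difference in the share of member cells among member and Retnla-type cells, female against male, was −5.05 in place of −10.8 points. Across the 24 tests on 4 shares none passed, the smallest exact permutation p being 0.0857 for Retnla-type cells in O FIS against Y VEH. The gate itself was widest in Y VEH F1, with 1719 of 8452 cells. A change in the number of cells and a change in their RNA content per cell cannot be told apart from such shares of captured cells.

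**Figure D2:**
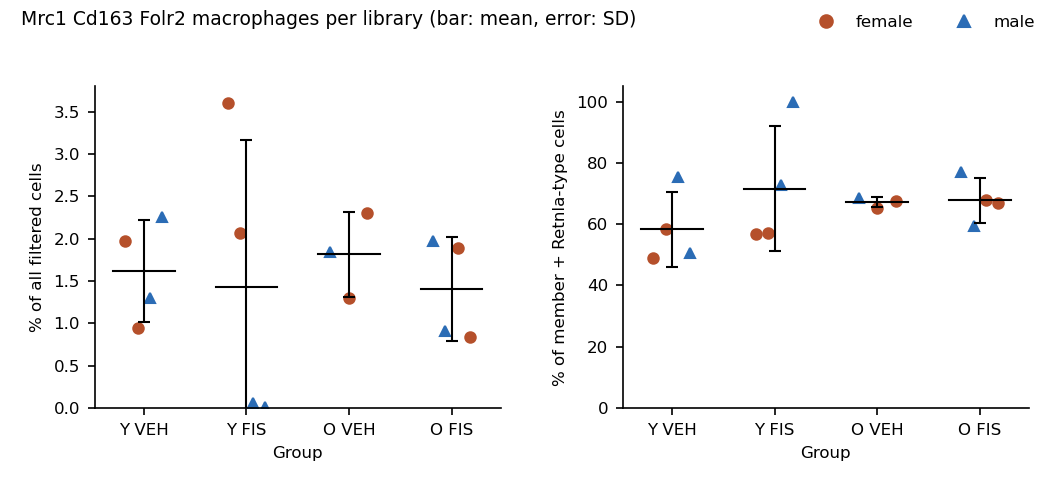
Share of the Mrc1 Cd163 Folr2 macrophages in each of 15 libraries, as percent of all filtered cells (left) and of these plus Retnla-type cells (right), with the mean and SD per group and symbols by sex. Both Y FIS male libraries lie near 0 at the left, with 8 and 1 cells, and the groups overlap in both panels.

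The main comparison was of RNA levels with age. Counts were summed over these cells in each library and tested with edgeR's quasi-likelihood test, with group and sex as terms. A DAR (differentially abundant RNA) had an adjusted p under 0.05, a log2 fold change beyond 0.25 and detection in over 10% of the cells in either arm. Averaged over treatments, old against young libraries gave 21 DARs of 7757 RNAs tested (0.271%), 16 higher and 5 lower. O VEH against Y VEH gave 10 of 7853 (0.127%), 7 higher and 3 lower, and O FIS against Y VEH gave 19 of 7820 (0.243%), 13 higher and 6 lower. The last pair share the Y VEH libraries, and the first holds all of them, so the 3 sets of values are not independent of each other. All 3 counts moved with the processing and with single libraries left out, as given at the end.

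Trem2, the lipid receptor of phagocytes in fatty or injured tissue, was called in all 3 comparisons. It stood at 47.7, 53.1, 69.3 and 75.4 CPM in the Y VEH libraries (F1, F2, M1, M2) and at 64.4 and 105.1 CPM in Y FIS F1 and F2. In O VEH it was 191, 154 and 161 CPM (F1, F2, M1), and in O FIS 198, 157, 228 and 191 CPM. Each old library was above each young one. The log2 fold change was 1.29 ± 0.15 (SE, edgeR adjusted p = 6.64e-05) for old against young, 1.51 ± 0.19 (adjusted p = 0.000383) for O VEH and 1.68 ± 0.18 (adjusted p = 4.37e-05) for O FIS against Y VEH.

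More of the cells also held a Trem2 UMI, 51.0 ± 5.22% in O FIS and 47.3 ± 4.57% in O VEH libraries against 29.0 ± 3.41% in Y VEH and 35.7 ± 9.499% in Y FIS. In B cells, which should lack the gene, it had a UMI in 0.340%, at a median depth of 6826.5 UMIs. The gene lies at 17:48653429-48661175 on the plus strand of GRCm39. In Retnla-type cells it averaged 14.5 ± 11.4 CPM, and the test that its age difference differs between both classes gave 0.09 ± 0.77 (adjusted p = 0.996), with an error too wide to show a difference of the size seen here. Trem2 stayed a DAR under all 24 alternatives tried, with log2 fold changes of 1.14 to 1.49.

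Genes of complement came next. C4b, the mouse complement C4 gene, was 243, 309, 368 and 279 CPM in Y VEH and 289.8 and 221 CPM in Y FIS, against 600.4, 442 and 562 CPM in O VEH and 542, 586, 502 and 479.5 CPM in O FIS. No old library reached down to a young one, and the log2 fold change was 0.93 ± 0.14 (SE, edgeR adjusted p = 0.00244), a call lost in 1 of 24 alternatives, with at least 2 genes of set A (adjusted p = 0.0696). For O VEH against Y VEH alone it was 0.84 ± 0.18 (adjusted p = 0.087). Fibroblasts held 305 CPM of C4b, while Retnla-type cells held 12.8 CPM. Fibroblast markers summed to 0.0469 to 0.0823% of UMIs in Y VEH, 0.0373 to 0.0941% in O VEH, 0.0193 to 0.116% in O FIS and 0.0472 to 0.0572% in Y FIS, and 5 of the 10 markers tested were higher and 5 lower in old libraries.

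Vsig4 was 52.9, 59.3, 91.6 and 90.6 CPM in the Y VEH libraries and 103, 83.6 and 97.9 CPM in O VEH. With fisetin it was 45.0 and 53.4 CPM in young and 66.9, 104, 163 and 173.0 CPM in old libraries. The groups overlapped, and the log2 fold change of 0.73 ± 0.15 (adjusted p = 0.0407) was that of the sex-adjusted fit, the male libraries being the higher in Y VEH and O FIS. The Vsig4 call was lost in 17 of 24 alternatives (adjusted p up to 0.410), among them without the sex term and without any 1 library other than Y VEH F1, O VEH M1 or O FIS F1. Of 23 complement genes 18 were tested, 2 were DARs, both higher, and 9 had an unadjusted p under 0.05 and were higher, against 5.16% of all RNAs higher and 5.66% lower at that limit. Their median log2 fold change was 0.32, against −0.02 for all RNAs. C1qa (0.35 ± 0.14, adjusted p = 0.383), C1qb (0.37, adjusted p = 0.374) and C1qc (0.30, adjusted p = 0.431) did not pass.

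**Figure D3:**
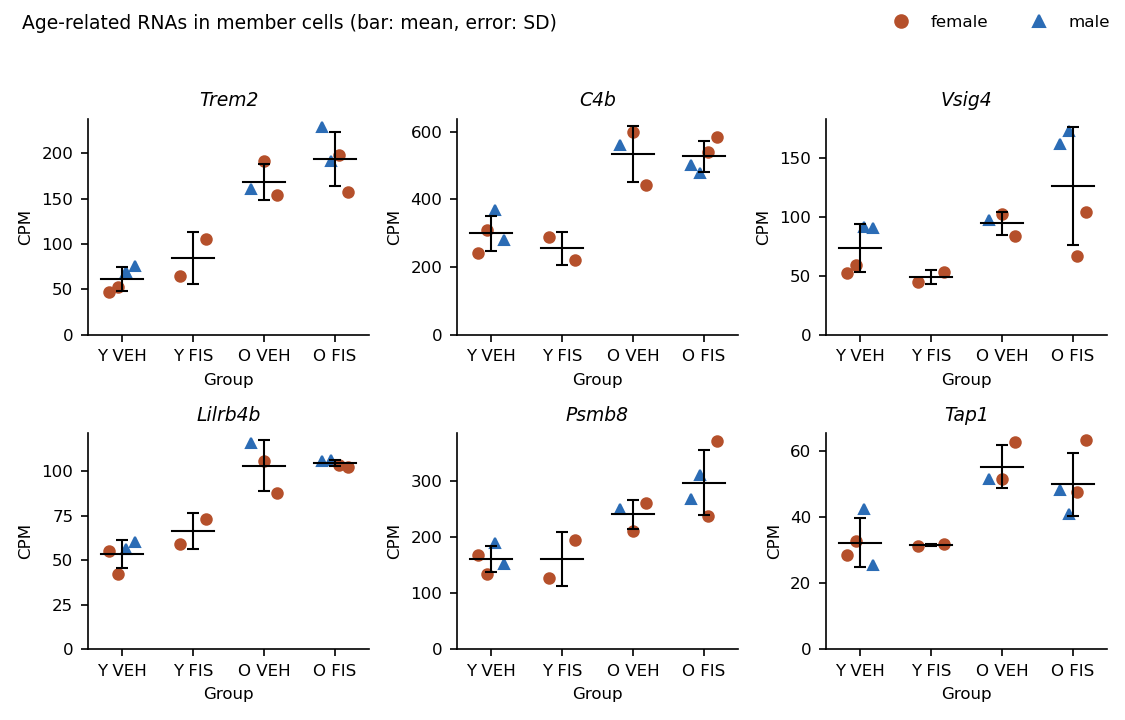
CPM of Trem2, C4b, Vsig4, Lilrb4b, Psmb8 and Tap1 in the cells of 13 libraries by group, circles for female and triangles for male, with the mean and SD. For Trem2, C4b, Lilrb4b and Psmb8 every old library stands above every young one; for Vsig4 the groups overlap, and for Tap1 the lowest old library (41.0 CPM) lies just under the highest young one (42.3 CPM).

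The lipid-associated macrophage list had 2 DARs of 24 genes tested, Trem2 and Ctsd, with 9 higher and 1 lower at an unadjusted p under 0.05 (5.16% and 5.66% of all RNAs, and 0.271% called) and a median of 0.28. Ctsd, the lysosomal protease cathepsin D, was 798, 624.7, 424 and 380.5 CPM in Y VEH and 386 and 417 CPM in Y FIS. In O VEH it was 817, 792 and 449 CPM, and in O FIS 942, 880.4, 498 and 534 CPM. The log2 fold change of Ctsd, old against young, was 0.68 ± 0.12 (SE, edgeR adjusted p = 0.011). The age call leaned on the Y FIS libraries and on the sex term, since O VEH against Y VEH gave 0.17 ± 0.16 (adjusted p = 0.937), and the call was lost in 6 of 24 alternatives, among them without the sex term (adjusted p = 0.391), without Y FIS F1 (0.131), without Y FIS F2 (0.0527) and without O VEH F2 (0.0594). Y FIS against Y VEH gave −0.83 ± 0.19 (unadjusted p = 0.00032, adjusted p = 0.799). Apoe was 0.53 ± 0.15 higher and Cd36, the fatty acid and oxidised lipid receptor, 0.41 lower on the log2 scale, and neither passed (adjusted p = 0.199 and 0.372).

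Both MHC class I DARs belong to peptide supply. Psmb8, a subunit of the immunoproteasome, was 168, 134, 190.3 and 151 CPM in Y VEH and 126 and 195 CPM in Y FIS, against 212, 261 and 250.5 CPM in O VEH and 238, 373, 269 and 311 CPM in O FIS, which do not overlap. Its log2 fold change was 0.72 ± 0.15 (adjusted p = 0.0407). Tap1, a subunit of the transporter that brings peptides to class I molecules, gave 0.75 ± 0.15 (adjusted p = 0.0401), from 25.4 to 42.3 CPM in young and 41.0 to 63.4 CPM in old libraries. Psmb8 lost its call in 11 and Tap1 in 12 of 24 alternatives (adjusted p up to 0.555 and 0.254), both of them without Y VEH F2, Y VEH M2, Y FIS F1, O FIS M1, O FIS F2 or any O VEH library, and Tap1 also without Y FIS F2. All 22 genes of the list were tested, 14 were higher and 0 lower at an unadjusted p under 0.05, against 5.16% and 5.66% of all RNAs, and the median was 0.40. The heavy chain H2-K1 (0.53, adjusted p = 0.196), H2-D1 (0.35, adjusted p = 0.408) and B2m (0.30, adjusted p = 0.426) did not pass.

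MHC class II genes showed no such shift, with 13 tested and a median of −0.05. They held 0 DARs, where 0.271% of all RNAs were called. At an unadjusted p under 0.05 they held 1 gene higher and 0 lower (5.16% and 5.66% of all RNAs). Cd74 stood at a log2 fold change of 0.02 ± 0.16 and H2-Aa at −0.07 ± 0.17. The difference between both lists was not tested.

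Interferon-induced genes gave 0 DARs among 49 of 61 genes tested with edgeR in old against young libraries, where 0.271% of all RNAs were called. Yet 46 of the 49 had a positive log2 fold change, against 3683 of 7757 RNAs, and the median was 0.49. At an unadjusted p under 0.05, 22 were higher and 0 lower, against 5.16% of all RNAs higher and 5.66% lower. In O VEH against Y VEH, 49 of 50 were positive, 28 were higher and 0 lower at that limit, against 3.58% of all RNAs higher and 3.01% lower, and the median was 0.71. As a share of UMIs the list took 0.546 to 0.650% in Y VEH and 0.779 to 0.873% in O VEH libraries, and with fisetin 0.594 to 0.789% in the young and 0.560 to 1.03% in the old. The O VEH libraries lay above all Y VEH libraries, while O FIS reached from one group to past the other.

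The single genes behind it spread widely. Bst2 (tetherin, which holds back budding virus) was 165, 144, 196 and 154 CPM in Y VEH and 364, 288 and 312 CPM in O VEH, a log2 fold change of 0.92 ± 0.24 (unadjusted p = 0.00159, adjusted p = 0.261). Irgm1, an interferon-induced GTPase, gave 0.94 ± 0.27 (unadjusted p = 0.00214, adjusted p = 0.291). Irgm1 was 11.4, 18.7, 19.97 and 15.9 CPM in Y VEH and 35.3, 26.5 and 31.6 CPM in O VEH, which did not overlap. Among the most abundant genes of the list, Ifitm3 (0.46 ± 0.18), Ifi27l2a (0.84 ± 0.25) and Ly6e (0.77 ± 0.19) did not pass in old against young libraries (adjusted p = 0.381, 0.296 and 0.155). Genes of such a list are not independent of each other, and no test of the list as a whole was made.

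**Figure D4:**
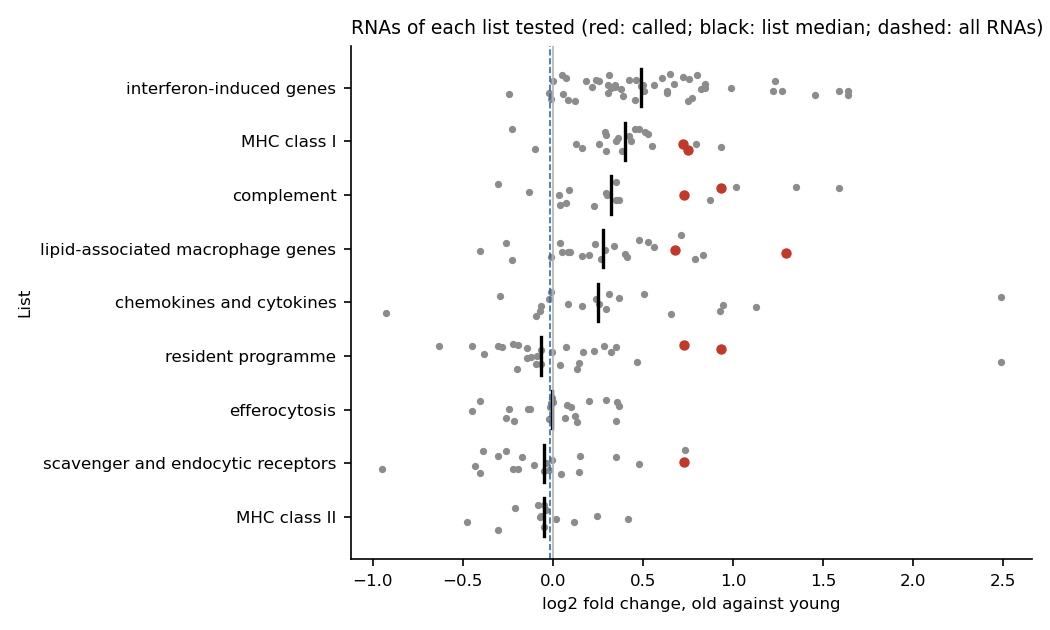
Log2 fold changes of old against young libraries for the tested genes of 9 lists (1 point per gene), with the list's median as a black bar, DARs in red and the median of all RNAs tested as a dashed line. The interferon-induced, MHC class I and complement genes lie mostly to the right of the line, and the resident programme, efferocytosis, scavenger and MHC class II genes lie about it.

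Of the genes that mark these macrophages few passed the test with age. In the resident programme 29 of 30 genes were tested (Klk1b11 was not), 2 (C4b and Vsig4) were DARs, 3 were higher and 1 lower at an unadjusted p under 0.05, and the median was −0.06. Of all RNAs 0.271% were called, and 5.16% were higher and 5.66% lower at that limit. Pf4 (2627 ± 508 CPM over libraries) gave −0.06 ± 0.15, the selenium carrier Selenop (2549 ± 514 CPM) −0.09 ± 0.18, and the transcription factor Maf −0.14 ± 0.15. The efferocytosis list had 22 tested genes, 0 DARs and a median of 0.00. The scavenger list had 21 tested genes, Vsig4 as its DAR and a median of −0.05, with Stab1 at −0.19 ± 0.18. Iron and haem genes had 21 tested, 0 DARs and a median of −0.02, with Hmox1, the haem oxygenase, at 0.55 (adjusted p = 0.199) and the ferritin chain Ftl1 at 0.36 (adjusted p = 0.378). By edgeR these lists of 0 DARs held 3 and 1 (efferocytosis) and 2 and 0 genes (iron) higher and lower at an unadjusted p under 0.05.

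Further DARs of old against young libraries lay outside the lists. Lilrb4b, of the Lilrb4 (gp49) receptors of myeloid cells, was 54.9, 42.2, 56.4 and 60.2 CPM in Y VEH and 59.2 and 73.4 CPM in Y FIS, against 106, 87.6 and 116 CPM in O VEH and 103, 103, 106 and 106 CPM in O FIS. Its log2 fold change was 0.76 ± 0.12 (adjusted p = 0.0037), lost in 2 of 24 alternatives (adjusted p up to 0.0845) with Y FIS F1 left out as one of them, and 0.95 ± 0.16 (adjusted p = 0.00679) for O VEH against Y VEH, which was lost without O VEH M1 (adjusted p = 0.165) and with no condition on set B. Near-identical copies of the Lilrb4 genes can share reads. Ifi206, a DNA sensor family gene, gave 1.39 ± 0.25 for old against young (adjusted p = 0.011), with overlap between ages, and the call was lost in 3 of 24 alternatives (adjusted p up to 0.0761), one of them without Y FIS F1. It ran from 4.66 to 14.1 CPM in Y VEH and from 30.5 to 37.4 CPM in O VEH (2.18 ± 0.35, adjusted p = 0.00481), a call lost in the same 2 alternatives (adjusted p up to 0.165). Tmem86a (0.81 ± 0.15, adjusted p = 0.011) and Antkmt (0.60 ± 0.13, adjusted p = 0.048) did not overlap between ages. Tmem86a lost its call without Y FIS F1 or F2 (adjusted p up to 0.0679), and Antkmt in 13 of 24 alternatives (adjusted p up to 0.416), among them without any 1 library other than Y VEH F1, Y VEH F2 or O FIS F1.

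Gpx3 (1.18 ± 0.22, adjusted p = 0.0154), a secreted glutathione peroxidase, and Cacna1a (1.07 ± 0.20, adjusted p = 0.0154), a calcium channel, were DARs at low levels of 27.8 and 44.6 CPM, and for both the old and young libraries overlapped. Fibroblasts held 676 CPM of Gpx3 and 82.3 CPM of Cacna1a. The call on the log2 fold change of Gpx3, old against young, was lost in 9 of 24 alternatives, which were at least 2 genes of set A (adjusted p = 0.217), no condition on set B (0.126), without cells of over 1% haemoglobin (0.326) and without each of Y FIS F1, Y FIS F2, O FIS M1, O FIS F1, O VEH F1 and O VEH F2 (adjusted p of 0.0524 to 0.124). The Cacna1a call was lost in 7 of 24 alternatives (adjusted p up to 0.200), among them without Y FIS F1, Y VEH M2, O VEH M1 or O VEH F2. The part of fibroblast RNA in these values was not tested.

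C130026I21Rik, Csprs and ENSMUSG00000079808 had the largest log2 fold changes of the DARs (2.69 ± 0.22, 2.49 ± 0.33 and 5.54 ± 0.56, adjusted p = 8.82e-07, 0.00037 and 2.12e-05). C130026I21Rik stood at 5.80 to 18.1 CPM in the 6 young and 48.6 to 95.1 CPM in the 7 old libraries. The 3 genes belong to near-identical copies, so reads could be split between them and the values are uncertain. B cells held 218, 15.98 and 69.7 CPM of them. The B cell markers of the list summed to 0.0540 to 0.0911% of the UMIs in 12 libraries and to 1.80% in O FIS F1, where Igkc was at 11923 CPM.

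For none of the 5 RNAs that fell with age did the difference from Retnla-type cells pass the test. Cmss1, a nucleolar protein gene, was 3307, 3586, 4428 and 4376 CPM in Y VEH and 2551 and 3337 CPM in Y FIS, against 1332, 824 and 1402 CPM in O VEH and 2059.7, 1778, 1804 and 2257 CPM in O FIS. It fell by 1.19 ± 0.14 on the log2 scale (SE, edgeR adjusted p = 0.000126), and the age difference in these cells minus that in Retnla-type cells was 0.04 ± 0.14 (adjusted p = 0.981). Cdk8, a kinase of the mediator complex, fell by 1.18 ± 0.16 (adjusted p = 0.00037), and its difference between both classes was −0.09 ± 0.14 (adjusted p = 0.933). Lars2 (−0.96 ± 0.15), Camk1d (−0.77 ± 0.15) and Gm48099 (−1.47 ± 0.26) were the others, with class differences of −0.14 ± 0.18, −0.14 ± 0.14 and −0.48 ± 0.29 that did not pass. The age calls of Camk1d and Gm48099 were lost in 10 of 24 alternatives each (adjusted p up to 0.201 and 0.184), both without Y FIS F1, Y FIS F2, Y VEH M2, O FIS M1, O FIS F2 or O VEH F2, Camk1d also without O VEH F1 and Gm48099 without O VEH M1. Cmss1 was also found in B cells (1856 CPM), endothelial cells (3224 CPM) and fibroblasts (1986 CPM). How far RNA shared by all cells of a library moved these 5 was not tested.

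Chemokine genes were mostly higher in old libraries by value. Of 36 on the list 20 were tested, edgeR called 0 in old against young, 6 were higher and 1 lower at an unadjusted p under 0.05 (5.16% and 5.66% of all RNAs), and the median was 0.25. Ccl2, which draws monocytes, was 105.2, 161, 159.7 and 186 CPM in Y VEH and 357, 244, 343 and 305 CPM in O FIS. These groups did not overlap, and it was a DAR there at a log2 difference of 1.05 ± 0.21 (adjusted p = 0.0492). The call was lost in 15 of 25 alternatives (adjusted p up to 0.284), among them without any one of the O FIS libraries, Y VEH F2, M1 or M2, or O VEH F2 or M1. In O VEH it was 327, 197 and 222 CPM, and O VEH against Y VEH gave 0.73 ± 0.23 (adjusted p = 0.411). Ccl6, the chemokine gene with one of the highest levels here (1854 ± 594 CPM), stood at 0.16 ± 0.20 with age, and Ccl24, which draws eosinophils, at −0.09 ± 0.25.

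Genes of senescence and its secretory phenotype, the target of a senolytic, held 0.146 to 0.214% of the UMIs in the 6 young libraries and 0.231 to 0.356% in the 7 old ones, which did not overlap. This gap lay mostly in 1 gene of the list, Ccl8, which made up 5.93 to 34.1% of the sum in young and 26.1 to 57.5% in old libraries. Without Ccl8, an alternative chosen after seeing the data, the list took 0.134 to 0.186% in young and 0.134 to 0.2095% in old libraries, which overlapped, and old minus young was 0.0138 in place of 0.0932 percentage points. By edgeR 0 of 19 tested genes of the list were DARs in old against young, with 6 higher and 0 lower at an unadjusted p under 0.05, against 5.16% and 5.66% of all RNAs, and a median of 0.09. In O FIS against O VEH 0 of 19 were DARs, 14 were positive, 0 were higher or lower at an unadjusted p under 0.05 (3.03% of all RNAs in each), and the median was 0.18. The summed level averaged 0.292% in O FIS and 0.261% in O VEH, whose libraries overlapped. In Y FIS against Y VEH 2 of 18 were higher and 1 lower at that limit (2.36% and 1.5% of all RNAs), with a median of 0.06. Cdkn1a, the cell cycle inhibitor p21, stood at 61.3 ± 18.4 CPM and gave 0.46 ± 0.16 (adjusted p = 0.345). Cdkn2a, the gene of p16, was too low to be tested.

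The lists named next held 0 DARs each by edgeR. Stress and immediate-early genes had 26 tested and a median of 0.12, with 23 positive and 3 negative, against 3683 of 7757 RNAs positive. Transcription factors (25 tested, −0.02), NF-kB response genes (19, 0.01), alternative activation genes (8, −0.05) and growth factor and matrix genes (20, 0.00) had medians near 0, and 8 proliferation genes one of 0.16. At an unadjusted p under 0.05 the stress list held 1 gene higher and 0 lower, the NF-kB list 1 and 0, the matrix list 1 and 1 and the others 0 and 0. The macrophage core genes (19 tested, median 0.09) held 8 higher and 0 lower, beside the 5.16% of all RNAs that were higher. Among lists of other cells, the 6 erythroid genes tested were all higher by value with a median of 1.10, 6 B cell genes had a median of 1.20, 5 neutrophil genes of 0.90, 7 monocyte genes of 0.08 and 4 smooth muscle genes of −1.93. At the unadjusted limit these lists held 0 and 0 (erythroid), 1 and 1 (B cell), 2 and 1 (neutrophil), 0 and 0 (monocyte) and 0 and 3 genes (smooth muscle) higher and lower. Smooth muscle markers summed to 0.0984% of UMIs in Y FIS F2 and to 0.00468 to 0.0140% in every other library, so their median leans on 1 young library. The part of these lists in the age results was not tested.

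O VEH against Y VEH, the comparison without fisetin, called Trem2, Lilrb4b, Ifi206, Eda, C130026I21Rik, Csprs and ENSMUSG00000079808 higher and Cmss1, Cdk8 and Lars2 lower. In all 10 the libraries of both groups did not overlap. These RNAs were called on the same libraries, so this is no further support, and the share of all RNAs without overlap was not counted. Eda, the ectodysplasin ligand of the TNF family, was 13.99, 10.9, 5.87 and 10.1 CPM in Y VEH and 35.3, 49.99 and 44.4 CPM in O VEH, a log2 fold change of 2.02 ± 0.33 (adjusted p = 0.00679). This call was lost in 4 of 25 alternatives (adjusted p up to 0.141), among them without O VEH M1 or F2. In O FIS it was 32.2, 26.1, 42.5 and 10.6 CPM, the last within the range of Y VEH. Lars2 was lost without O VEH M1 or F2 (adjusted p up to 0.175), and Csprs without O VEH M1 (adjusted p = 0.105).

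O FIS against Y VEH added C4b (0.82 ± 0.17), Psmb8 (0.87 ± 0.18), Ccl2, Cd300c2 (0.94 ± 0.20), Cd72 (1.44 ± 0.28), Phf11d (1.11 ± 0.23), Tmem86a (0.95 ± 0.18) and Gm30382 (1.63 ± 0.31) to the RNAs called higher, at adjusted p of 0.0368 to 0.0492. Cd72, an inhibitory receptor best known from B cells, was 11.4, 40.6, 30.5 and 26.8 CPM in Y VEH and 71.7, 76.5, 69.0 and 57.7 CPM in O FIS, with 120 CPM in B cells. Phf11d was the interferon-induced DAR, where 19 of 48 tested were higher and 0 lower at an unadjusted p under 0.05, with a median of 0.60, against 6.09% of all RNAs higher and 7.01% lower. Lpar1, a receptor for lysophosphatidic acid, fell by 0.97 ± 0.17 (adjusted p = 0.0209). These calls were close to the limit. The 8 RNAs above lost theirs in 12 (Tmem86a) to 20 (Phf11d) of 25 alternatives, with adjusted p of up to 0.322 (Cd72), and all 8 did so without Y VEH M2 and without O FIS M1. Lpar1 lost its call in 5 of 25, both of these among them (adjusted p up to 0.131). This contrast differs in both age and agent. Its count of 19 depended on single libraries, with 64 called without Y VEH F1, which had the highest monocyte markers, and 3 without Y VEH M2 or O FIS M1.

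The fisetin comparisons called nothing in the main edgeR fit. O FIS against O VEH gave 0 DARs of 7727 RNAs (0%) with edgeR and 0 with DESeq2, with 468 at an unadjusted p under 0.05 and a smallest adjusted p of 0.745. Y FIS against Y VEH, on the 2 female Y FIS libraries, gave 0 of 7876 (0%) with edgeR and 1 with DESeq2, with 304 at an unadjusted p under 0.05 and a smallest adjusted p of 0.799. The test that fisetin acted differently in old and young gave 0 of 8091 (0%) with edgeR and 1 with DESeq2, with 451 at that limit.

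The RNAs that differed with age had these values under fisetin. O FIS against O VEH gave for Trem2 a log2 fold change of 0.17 ± 0.19, for C4b −0.02 ± 0.18, for Lilrb4b 0.00 ± 0.16, for Psmb8 0.28 ± 0.19, for Tap1 −0.16 ± 0.20 and for Vsig4 0.23 ± 0.20 (adjusted p of 0.767 or more). Of the RNAs that fell with age, Cmss1 and Cdk8 gave the larger values, and none passed. Cmss1, at 824 to 1402 CPM in O VEH and 1778 to 2257 CPM in O FIS, did not overlap and gave 0.71 ± 0.19 (unadjusted p = 0.00152, adjusted p = 0.745). Cdk8 gave 0.77 ± 0.22 (unadjusted p = 0.00187, adjusted p = 0.745), while Lars2 gave 0.33 ± 0.20, Camk1d −0.01 ± 0.20 and Gm48099 0.09 ± 0.39. Against Y VEH the values of O VEH and O FIS were −1.68 and −0.98 for Cmss1 and −1.69 and −0.92 for Cdk8, contrasts that share the Y VEH libraries. Of the list of 8 genes that holds Cmss1, Cdk8, Lars2 and Camk1d, which was itself chosen from earlier results of these data, 6 were tested in O FIS against O VEH, with 2 higher and 0 lower at an unadjusted p under 0.05 (3.03% of all RNAs in each) and a median of 0.45. Interferon-induced genes had a median of −0.12 in O FIS against O VEH, with 37 of 50 lower and 0 at an unadjusted p under 0.05 in either direction, against 3.03% of all RNAs in each. In Y FIS against Y VEH the median was 0.33, with 5 of 48 higher and 1 lower at that limit, against 2.36% and 1.5% of all RNAs. Other lists held genes at that limit in O FIS against O VEH. Proliferation genes (8 tested, median 0.45) had 3 higher and 0 lower, and fibroblast markers (8 tested, median −0.77) had 0 higher and 3 lower. The whole proliferation list summed to 0.187% of UMIs in O FIS M2 and to 0.0633 to 0.101% in the other O FIS libraries. In O VEH it summed to 0.0633 to 0.0899%. Ifi206 stood at 21.8 and 24.1 CPM in Y FIS, above the 4.66 to 14.1 CPM of Y VEH (1.46 ± 0.40, adjusted p = 0.799). Trem2 in Y FIS against Y VEH gave 0.60 ± 0.23 (adjusted p = 0.999). The lack of calls does not show that fisetin left these cells as they were.

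Sex called 7 RNAs of 7729 (0.0906%), of which 6 lie on or act from the sex chromosomes (Xist and Tsix higher in female, Eif2s3y, Uty, Ddx3y and Kdm5d higher in male libraries) and match the labelled sex of all 13 libraries. The remaining one was Ctsd. Its levels in female libraries (386 to 942 CPM) and male ones (380.5 to 534 CPM) overlapped through Y FIS, and the log2 fold change of female against male was 0.83 ± 0.13 (SE, edgeR adjusted p = 0.00242). Without the condition on set B the call was lost (adjusted p = 0.622). Retnla-type cells held 583 ± 138 CPM of Ctsd, much as these cells did (611 ± 207 CPM).

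The age difference itself differed by sex for 1 of 8088 RNAs tested (0.0124%), Ccl8, a chemokine of resident macrophages that attracts lymphocytes and monocytes. Young female libraries stood at 110, 186, 113 and 110 CPM (Y VEH F1 and F2, Y FIS F1 and F2), and old female libraries at 1068, 1212, 1367 and 2363 CPM. In male libraries the young were at 739 and 488 CPM and the old at 768, 697 and 792 CPM. Females thus rose from below the males to above them, while old and young males overlapped.

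With Y VEH as the young baseline, the log2 difference with age in males minus that in females was −3.02 ± 0.38 for Ccl8 (SE, edgeR adjusted p = 0.00245). It ran from −3.44 to −2.15 over the alternatives and was not called with at least 2 genes of set A (adjusted p = 0.387) or without the condition on set B (adjusted p = 0.265). Over both sexes Ccl8 did not pass, with 2.49 ± 0.57 for old against young (adjusted p = 0.211). A Ccl8 UMI was found in 58.6 ± 3.62% of these cells in O VEH and 49.2 ± 8.73% in O FIS, 28.6 ± 6.28% in Y VEH and 22.4 ± 0.301% in Y FIS, against 2.91% of B cells, 3.12% of Retnla-type cells and 12.1% of fibroblasts. Young males rest on 2 libraries, both Y VEH.

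The interferon-induced genes gave 0 DARs of 51 tested in this contrast of the sexes with edgeR. Of them 48 had a negative difference, so a larger value with age in females than in males, 0 were higher and 7 lower at an unadjusted p under 0.05 (1.89% and 1.87% of all RNAs), and the median was −0.56. Other lists stood off 0 there as well, with a median of 1.12 for fibroblast markers (9 of 10 positive) and of −2.36 for erythroid markers (0 of 6 positive). The part of such RNA in the interferon values was not tested.

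**Figure D5:**
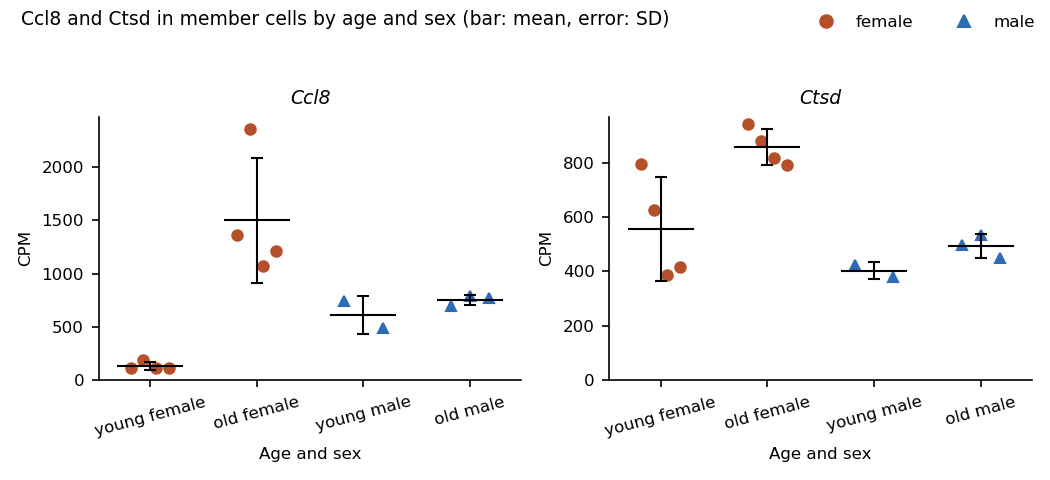
CPM of Ccl8 and Ctsd in the macrophages of 13 libraries by age and sex, with the mean and SD. Ccl8 runs from 110 to 186 CPM in young females and from 1068 to 2363 CPM in old ones, with males between; old males and young males overlap.

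Whether these macrophages differed with age otherwise than Retnla-type cells of the same libraries was tested on sums of both classes, with the library as a block. Of 8731 RNAs 1 (0.0115%) was called, Eda, with a difference of 5.64 ± 0.80 (SE, edgeR adjusted p = 0.00972). In Retnla-type cells Eda stood at 0 to 7.70 CPM in young libraries and, of the old ones, at 0.569 CPM in O VEH F2 and 0 in the other 6, so the fitted value depends on the prior count and is no measure of size. Eda had a UMI in 9.87% of the cells described here, and fibroblasts held 135 CPM. Fibroblast markers moved the same way in this contrast, with 9 of 10 tested positive, 3 higher and 0 lower at an unadjusted p under 0.05 (2.78% and 2.97% of all RNAs) and a median of 0.65. Their summed level in these cells was 0.0469 to 0.0823% of UMIs in young and 0.0193 to 0.116% in old libraries, and their part in the Eda value was not tested. Of 23 alternatives Eda was called in 11 and not called in 2, with at least 2 genes of set A (adjusted p = 0.0648) and without O FIS F1 (0.0877). In the other 10 it fell under the limits on low RNAs and was not tested, which was so with at least 4 genes of set A, with no condition on set B, on thinned cells, without cells of over 1% haemoglobin, and without each of Y VEH F1, Y VEH M2, Y FIS F1, Y FIS F2, O VEH M1 and O VEH F2. Interferon-induced genes had a median difference of 0.22 between the classes, with 8 of 49 higher and 1 lower at an unadjusted p under 0.05, against 2.78% and 2.97% of all RNAs. MHC class I genes had 0.24 (4 of 22 higher and 0 lower), and efferocytosis genes −0.22 (0 of 22 higher and 2 lower). Stress and immediate-early genes had 0.27 (6 of 27 higher and 0 lower), and growth factor and matrix genes −0.15 (0 of 22 higher and 3 lower). C4b (−1.02 ± 0.78) and Vsig4 (1.87 ± 1.00), both low in Retnla-type cells, had wide errors in this test.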

How the data were processed

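The deposited matrices hold whole UMI counts of each gene in each barcode, one matrix a library, which the authors made with Cell Ranger 8.0.1 on 10x Chromium 3′ libraries with the mouse reference GRCm39; Seurat 5.2.0 is also named in the submitters' processing notes. Everything after these count matrices was computed here. Such 3′ UMI counts do not grow with transcript length. Cells were filtered, gated and chosen as the report describes, and B cells, endothelial cells and fibroblasts of the same libraries served as reference cells. Reference cells held a UMI of fewer than 2 of the gate genes. B cells held both Ms4a1 and Cd79a, endothelial cells both Cdh5 and Pecam1, and fibroblasts at least 2 UMIs of Lum and Pdgfra. Doublets were called with Scanpy 1.11.5 and kept, and a fit without them was an alternative.

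Counts were summed over the chosen cells in each library, and the 13 libraries with at least 10 such cells were tested with edgeR 4.0.16 (R 4.3.3) by its quasi-likelihood test, with TMM scaling, filterByExpr, group and sex as terms and Benjamini-Hochberg adjustment over all RNAs tested. The smallest and largest sums, 588950 and 2123545 UMIs, set the precision. As no male Y FIS library entered, the age-by-sex contrast took Y VEH alone as the young baseline, an alternative added after the data were seen. Both classes were compared in 26 sums with the library as a block. Shares of cells were compared over all 15 libraries by exact two-sided permutation tests, adjusted over 24 tests. DESeq2 1.42.0 and limma 3.58.1 served as alternatives. The edgeR fit was tried on simulated counts for old against young, O VEH against Y VEH and O FIS against O VEH. The other tests were not tried on simulated counts.

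Named RNAs were those of the rule and gate, in each contrast up to 10 DARs with the largest increase and up to 10 with the largest decrease, DARs and up to 6 of the most abundant genes of each list, the 10 most abundant RNAs, and the 10 highest and 10 lowest by the ratio of mean CPM to Retnla-type cells, with 1 CPM added to both means. Genes named for cell identity or within the Lyve1 split were chosen with their values seen. The members and all gene lists were chosen with earlier results of these data known. The promoters are from RefSeq on GRCm38.p6, not the GRCm39 build of the files, and no coordinates were converted. Nothing in the labels says more of the pools than that each held 3 mice (the methods in one place allow fewer), so p-values measure the spread between pools.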

Additional observations from a re-analysis of the deposited data

Results flagged for a closer look

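Of 76 groups of 4 libraries tested for a library far from the rest, 4 held one, where chance gives about 1 in 20. The values searched were shares of cells, haemoglobin and named RNAs, and O VEH, with 3 libraries, was not searched. Saa3, which was not a DAR, was added to the search by choice, so that rate does not apply to it. Saa3, an acute-phase serum amyloid gene, stood at 604 CPM in Y VEH F1, against 0 to 3.12 CPM in the other Y VEH libraries. It stood at 3680 CPM in O FIS F2, against 1.23 to 595 CPM in the other O FIS libraries. Gm30382 was at 62.2 CPM in O FIS M1 and at 19.7 to 21.9 CPM in the others of that group, and B cells held 44.4 CPM of it. ENSMUSG00000079808 was at 0.518 CPM in Y VEH F1 and at 0 in the other 3 Y VEH libraries.

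A pair of effects differed between sets of samples by a test of the difference itself. The age difference of Ccl8 in males minus that in females was −3.02 on the log2 scale (edgeR adjusted p = 0.00245), with each of the 4 old female libraries above each of the 4 young ones. The age difference of Eda in these macrophages minus that in Retnla-type cells was 5.64 (edgeR adjusted p = 0.00972), where 6 of 7 old libraries held no Eda UMI in Retnla-type cells. The Eda value is thus no measure of size. Over the alternatives Eda was called in 11, not called in 2 and not tested in 10.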

How the results depend on the processing

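The direction and call of Trem2, C130026I21Rik, Csprs, Cmss1, Cdk8 and Lars2 for old against young held under all 24 alternatives, and those of ENSMUSG00000079808 under the 22 in which it was tested. Over 61 results on named RNAs, 337 of 1463 alternatives lost the call and 0 reversed, and under relative log expression (RLE) size factors the 107 list medians shifted by 0.000112 to 0.0152 on the log2 scale, 6 of them, which lay near 0, changing sign. A rescaling shifts most genes alike and is no test of a list. The causes of the changes below were not tested. With no filter on genes, the counts of DARs were 129 for O VEH against Y VEH (main value 10), 19 for O FIS against O VEH (0), 50 for Y FIS against Y VEH (0), 182 for O FIS against Y VEH (19), 147 for old against young (21), 35 for the fisetin difference between ages (0), 49 for sex (7), 47 for age by sex (1) and 40 for age by class (1). DESeq2 gave 29, 51 and 51 for O VEH and O FIS against Y VEH and old against young, 1 for Y FIS against Y VEH, 1 for the fisetin difference and 2 for age by sex.

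For O VEH against Y VEH the count was 31 on the libraries compared alone, 18 with at least 2 and 23 with at least 4 genes of set A, 25 under the rule on cells thinned to 2000 UMIs, and 5 to 22 leaving out 1 library (22 without Y VEH M1, 5 without O VEH M1). For O FIS against Y VEH it was 9 with RLE factors, 2 on the libraries compared alone, 7 with at least 2 genes of set A, 2 with no condition on set B, 30 on thinned cells and 3 to 64 leaving out 1 library (64 without Y VEH F1, 3 without Y VEH M2 or O FIS M1, 7 without Y VEH F2, O VEH M1 or O VEH F2, 8 without O FIS F2, 12 without O VEH F1). For old against young it was 13 and 36 with at least 2 and 4 genes of set A, 10 with no condition on set B, 60 on thinned cells and 10 to 32 leaving out 1 library (32 without Y VEH F1 or O FIS F1, 13 without Y FIS F1, 10 without O VEH F2). Leaving out 1 library gave 0 for O FIS against O VEH throughout, 0 to 8 for Y FIS against Y VEH (8 without Y FIS F1, 1 without O FIS F1) and 0 to 2 for the fisetin difference (2 without Y FIS F1, 1 without Y VEH F1). For sex the count was 11 with at least 4 genes of set A, 12 on thinned cells and 7 to 11 leaving out 1 library (11 without O FIS M2). For age by sex it was 0 with at least 2 genes of set A, 3 with at least 4, 0 with no condition on set B and 1 to 2 leaving out 1 library (2 without any of the O FIS libraries). For age by class it was 0 with at least 2 or 4 genes of set A, with no condition on set B and without cells of over 1% haemoglobin, and 0 to 1 leaving out 1 library (0 without Y VEH F1, Y VEH M2, Y FIS F2, O VEH M1, O VEH F2 or O FIS F1).

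Replicate numbers gave no sign of pairing the libraries, since 16 pairs of one number had a median correlation of −0.150 and 1 was over 0.1. Among 16 pairs of the same sex and another number the median was −0.0583, with 2 over 0.1. Among 30 other pairs it was 0.0958, with 14 over 0.1. Whether libraries of one number shared a batch was not tested. With the number as a block, O FIS against Y VEH gave 7 and old against young 14.

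No share passed under 432 alternatives (smallest adjusted p 0.168), and 32 changed sign. Values are in percentage points. The share of member cells among filtered cells, O VEH against Y VEH, was −0.0438 on the logit scale of limma and −0.0472 to 0.452 leaving out 1 library. Y FIS minus Y VEH was 1.21 without both male Y FIS libraries and −0.910 to 0.288 leaving out 1 library. The share of member cells among filtered cells, old against young, was −0.0929 with no condition on set B, −0.444 without those males and −0.163 to 0.351. Of gated cells, O FIS minus O VEH was −5.41 to 1.72, Y FIS minus Y VEH 5.46 without those males and −7.65 to 1.32, and old minus young −3.50 to 0.443. The share of member cells among gated myeloid cells, female against male, was −0.204 with at least 4 genes of set A, −2.49 without those males and −1.19 to 2.84. For Retnla-type cells of the gate Y FIS minus Y VEH was 4.51 without those males. The share of member cells among member and Retnla-type cells, O FIS against O VEH, was −1.01 with at least 4 genes of set A, −1.68 on thinned cells, −0.0204 on the logit scale and −2.54 to 3.34. Y FIS minus Y VEH was −1.41 without those males, and old minus young −0.993 on thinned cells.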

Other observations

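The members' own values hold a few more patterns, given here as values. Colec12, a scavenger receptor with a collagen-like stem, stood at 136 ± 61.5 CPM and gave −0.95 ± 0.20 for old against young (edgeR adjusted p = 0.0807), with fibroblasts at 270.3 CPM. Cd36 gave an age difference in these cells minus that in Retnla-type cells of −0.67 (edgeR adjusted p = 0.65). Both were chosen after their values were seen.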
